A study of Arabidopsis thaliana with 15 samples.

Results

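Messenger RNA was compared for 68 photosystem and light-harvesting genes of Arabidopsis thaliana, out of 22526 genes in the tables. The genes were chosen by annotation: a gene was taken where the deposited annotation names a photosystem, a light-harvesting protein or a chlorophyll A-B binding protein. The rule reads annotation text only. By role they are 6 LHCA and 13 LHCB antenna genes, 6 genes of related light-harvesting-like proteins, 13 photosystem I (PSI) and 12 photosystem II (PSII) subunit genes, 10 further PsbP-domain genes, 6 genes for assembly and repair, and 2 genes annotated by likeness to PSI subunits. The wording of the annotation leaves out LHCB1.1 and PSBO1, which are given beside their relatives below, and LHCB1.3 was not analysed here. In the RefSeq annotation of TAIR10.1 the 68 genes lie in the nucleus, 24 on chromosome 1, 12 on chromosome 2, 13 on chromosome 3, 11 on chromosome 4 and 8 on chromosome 5. The photosystem subunits that plastids encode were not analysed here.

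All seedlings were wild type, accession Columbia (Col-0), and were 14 days old. They were raised on agar plates of Murashige and Skoog medium and shared a last day in its liquid form. Control seedlings were taken before any treatment. The other 4 groups were given the drought hormone abscisic acid (ABA) at 20 µM for 1 h or 3 h, or lay out of the medium on filter paper for 1 h or 3 h (dehydration), all in the light. The 15 libraries, 3 per condition, were made from polyadenylated RNA of whole seedlings with a strand-specific kit, and the tables hold 1 combined column per condition. The differences therefore carry no replicate check and no p-value. Column totals ran from 163762670 to 204315702 reads. Intervals are exact 95% counting intervals and cover counting error only. Untreated seedlings served all 4 comparisons with the control, so those comparisons share 1 column. No time-matched untreated group is among the samples, so treatment, elapsed time and handling cannot be told apart. Per the labels' protocols, the 3 replicates within each condition went into 1 sequencing pool, and whether conditions shared that pool is not given there.

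Photosystems are pigment-protein complexes of the thylakoid membrane. PSII takes electrons from water and PSI passes them to ferredoxin, while LHCB proteins gather light mainly for PSII and LHCA proteins for PSI. In plants the plastid genome encodes the reaction-centre cores, and the nucleus encodes the antenna and many peripheral subunits. Messenger RNAs of these nuclear genes are among the most abundant in green tissue and are known to follow light, the circadian clock and the state of the chloroplast.

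The photosystem and light-harvesting genes took a smaller share of the reads in each of the 4 treated columns than in the control. They held 6.44% of all reads in the control (interval 6.43% to 6.44%), 4.63% and 3.56% with 1 h and 3 h of ABA, and 4.14% and 3.74% with 1 h and 3 h of dehydration. The control share was highest and the ABA 3 h share lowest. LHCB genes alone held 2.54% of all reads in the control and 1.36% after ABA 3 h. Within the reads of the 68 genes the LHCB part was 39.4% in the control, 38.1% after ABA 3 h and 36.1% after dehydration 3 h, and the LHCA part was 17.9%, 17.4% and 18.9% in the same columns. Each of the 4 large classes (LHCA, LHCB, PSI and PSII subunits) held a smaller share of all reads in every treated column than in the control. In these whole seedlings, fewer green cells and less of these RNAs per cell cannot be told apart. A list of 10 root marker genes, none at 0 reads, summed to 175 CPM in the control. CPM is the read count of a gene relative to the column's total, after the totals were scaled between columns as described below. In the treated columns the sum was 102 to 147 CPM. The single root markers went both ways. Of the 8 with a mean of at least 1 CPM, 3 were above the control after ABA 1 h, ABA 3 h and dehydration 1 h. After dehydration 3 h 2 of the 8 were above it, the highest at log2 5.45, with a median log2 ratio of −0.88. A list of 6 shoot epidermis and leaf markers, again none at 0, summed to 873 CPM in the control and to 899 to 1252 CPM in the treated columns. After dehydration 3 h, however, 4 of these 6 were below the control, with a median log2 ratio of −0.04, and CER5 stood at 1.28. Their part in the result was not tested.

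**Figure D1:**
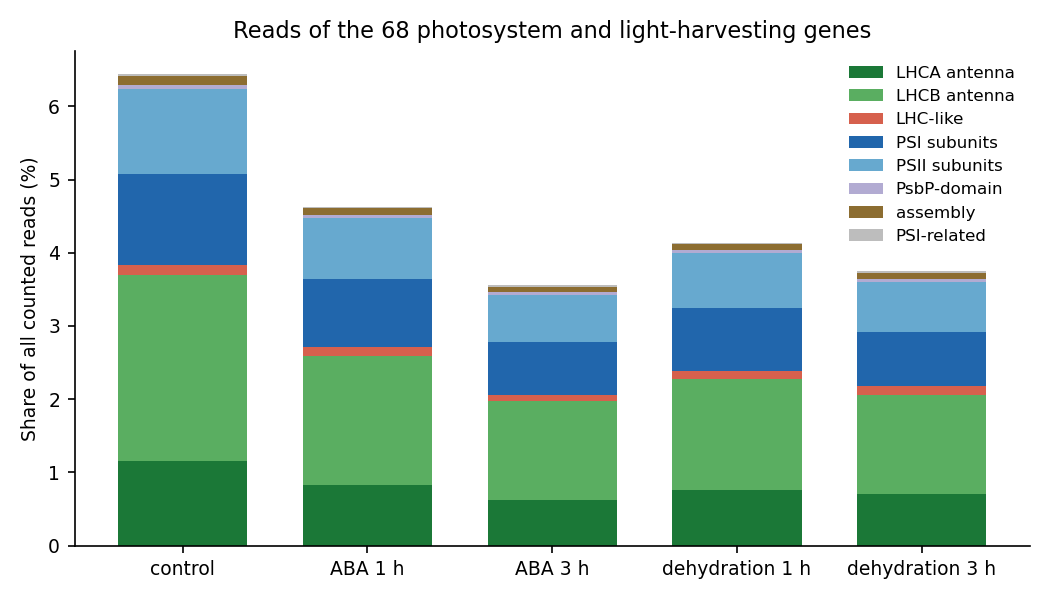
Share of all counted reads, in percent, held by the 68 photosystem and light-harvesting genes in each of the 5 combined columns; colours stack the roles. The control bar reaches 6.44%, and the treated bars lie between 3.56% and 4.63%.

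A gene was compared where its mean over the 5 columns was at least 1 CPM, scaled between columns by edgeR's trimmed mean of M-values (TMM), which kept 66 of the 68. The filter left out the chlorophyll-binding gene AT5G28450, with 44 to 75 reads per column, and the PsbO-family gene AT4G37230, with 6 to 23 reads. After ABA 1 h, 63 of the 66 were below the control, where 49.1% of all 18875 genes compared were, and the median log2 ratio of CPM was −0.49 against 0.01 for all genes. At least 2-fold lower were 2 (5.24% of all genes) and at least 2-fold higher 0 (4.46%). After ABA 3 h, 63 were below the control (49.8% of all genes), the median was −0.75, 10 were at least 2-fold lower (7.88%) and 1 was at least 2-fold higher (9.02%). With upper-quartile scaling 17 were at least 2-fold lower there, and 9.23% of all genes. After dehydration 1 h, 62 were below the control (52.3%), the median was −0.69, 8 were at least 2-fold lower (5.85%) and 2 at least 2-fold higher (7.49%). With total-count scaling 5 were at least 2-fold lower, and 4.58% of all genes. After dehydration 3 h, 62 were below the control (52.6%), the median was −0.67, 13 were at least 2-fold lower (6.57%) and 2 at least 2-fold higher (10.4%). The median for all genes was 0.00 after ABA 3 h and −0.03 at both times of dehydration. The shift was thus shared by nearly all of the genes and mostly smaller than 2-fold.

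The members were then set beside other abundant genes. Of the 66, 47 had a mean above 100 CPM, and their median log2 ratios were −0.51 and −0.83 with 1 h and 3 h of ABA, and −0.71 and −0.73 with 1 h and 3 h of dehydration. All series of 4 values below keep this order of columns. The 2063 other genes above 100 CPM (2062 of them compared after ABA 3 h) had medians of 0.04, 0.03, −0.13 and −0.05 in the same order. In the control, members were 5 of the 10 genes with the highest FPKM (a level per length of transcript and per depth), 24 of the top 50 and 31 of the top 100.

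**Figure D2:**
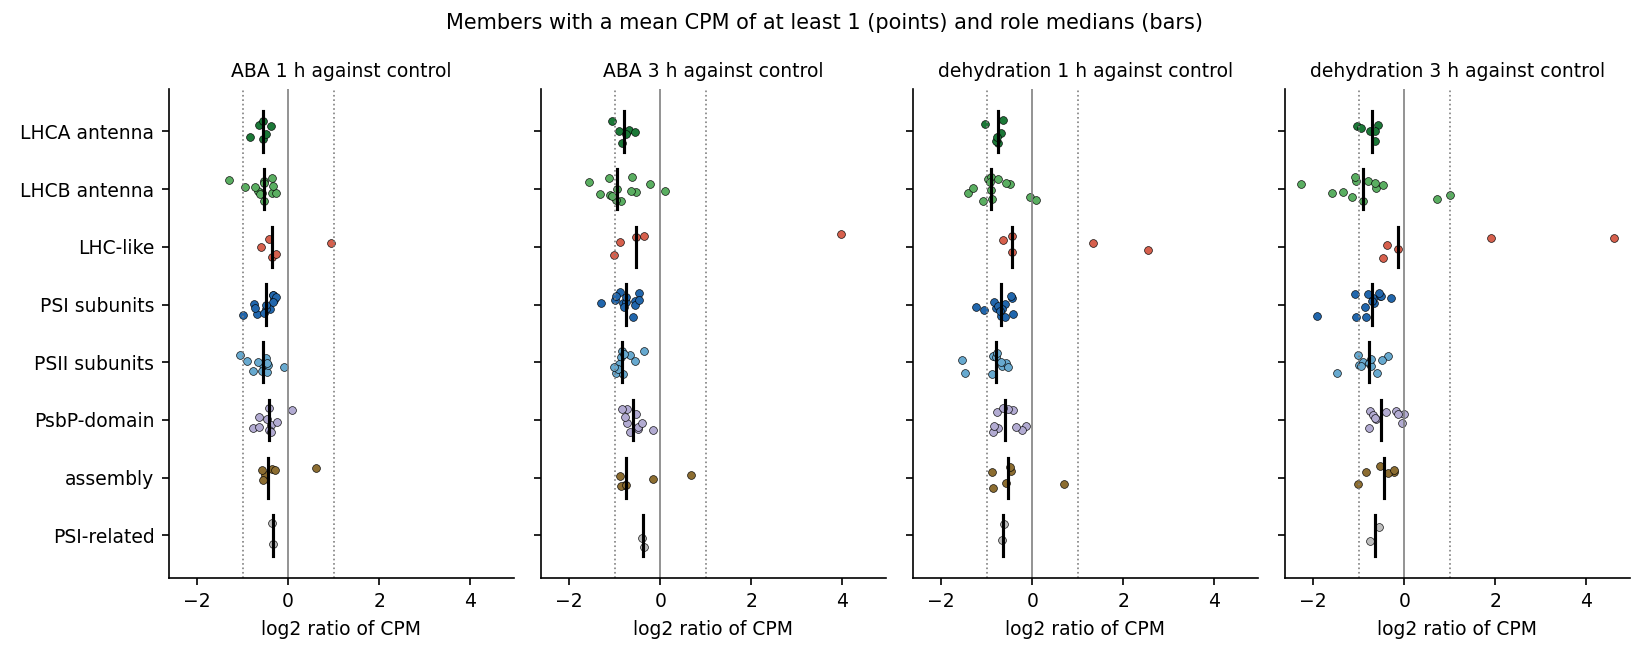
Log2 ratio of CPM for the 66 genes with a mean of at least 1 CPM (points), by role, in the 4 comparisons with the control; black bars mark the median of a role, dotted lines a 2-fold difference. Most points lie between 0 and −1 in each panel, and ELIP1 is the point farthest to the right, at 0.93, 3.98, 2.55 and 4.61.

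Over all 4 treated columns, 59 of the 66 genes were below the control in each column, and 26.7% of all genes measured were. Since the 4 comparisons share the control column, these counts are not independent of each other. The 7 that were above it at least once (73.3% of all genes) were LHCB1.4, LHCB4.3, LHCB7, ELIP1, ELIP2, AT1G69680 and AT3G22690. All of these but LHCB1.4, at 894 FPKM, were weakly expressed, with 1.31 to 9.70 FPKM in the control. ELIP1 was the 1 gene above the control in all 4 columns (24.3% of all genes). LHCB2.3 and AT1G51400 were the 2 that were at least 2-fold lower in all 4 (1.75% of all genes), AT1G51400 not with RLE scaling. At least 2-fold lower in at least 1 column were 20 genes, against 13.5% of all genes, and 28 members with upper-quartile scaling. The lowest of the 4 treated columns was ABA 3 h for 29 genes (27% of all genes), dehydration 3 h for 21 (29.7%), dehydration 1 h for 13 (26.6%) and ABA 1 h for 3 (16.7%). With total-count scaling these counts were 37, 23, 5 and 1, so which column was lowest depended on the scaling for some members.

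The 250 bases before the annotated start were read from the RefSeq TAIR10.1 genome for 67 of the 68 genes and searched on both strands for 6 short motifs. The G-box CACGTG, a light-response and bZIP or bHLH binding motif, was in 16 of the 67 (23.9%) and in 7.24% of the same windows of 22427 genes. An ABRE form, ACGTGGC, a motif known from ABA-responsive genes, was in 12 (17.9%, against 3.78%). The 2 motifs can share letters: 11 genes held both, in 10 of them overlapping, and 17 held either. The I-box GATAAG was in 15 (22.4%, against 12.4%), the DRE core CCGAC in 7 (10.4%, against 12.6%), the CCA1 site form AAAAATCT in 5 (7.46%, against 6.59%) and the evening element core AGATATTT in 2 (2.99%, against 4.93%). Windows of AT1G52220 and PSAH-2, which lie 32 bases apart on opposite strands, overlap and hold 1 G-box in common. These are matches of letters, not measured binding. The 30-base stretches around the G-box are shown, on the gene's own strand and 5′ to 3′ with matched motif letters in capitals, for the gene furthest above the control (ELIP1), the 2 that were at least 2-fold lower in all 4 columns (LHCB2.3 and AT1G51400), and 4 other antenna or subunit genes. Of these 4, LHCB4.1, LHCA4 and PSBQ-1 were below the control in all 4 columns and lowest after ABA 3 h. The G-box begins 66 bases before the start in ELIP1 (chr3:8085718-8085747, minus strand), 88 in LHCB2.3 (chr3:10255806-10255835, plus strand), 67 in AT1G51400 (chr1:19052632-19052661, minus strand), 74 in LHCB4.1 (chr5:208780-208809, plus strand), 19 in LHCB7 (chr1:28728967-28728996, plus strand), 88 in LHCA4 (chr3:17495104-17495133, minus strand) and 83 for the first of the 2 in PSBQ-1 (chr4:11334257-11334286, plus strand).
ELIP1: tactatatgattCACGTGtaatgtttttga
LHCB2.3: acatatcttctaCACGTGaatctagtttgt
AT1G51400: atagcacagagaCACGTGGCaaaaacccat
LHCB4.1: aagaccgcagtaCACGTGGCttcttctaac
LHCB7: cgaatatcattaCACGTGGCcagatccata
LHCA4: ccatttaattgaCACGTGtaacaacaatgg
PSBQ-1: aaataatcttGCCACGTGGCtttaaggcgg
The G-box of ELIP1, LHCB2.3 and LHCA4 is not followed by the letters of the ABRE form, while that of AT1G51400, LHCB4.1 and LHCB7 and the one shown for PSBQ-1 are. The other G-box of PSBQ-1, 55 bases before the start, is not. ELIP1 and LHCB2.3 thus have the same bare form of the G-box. The 250 bases before ELIP1 also hold an I-box, 17 bases before the start, while those of LHCB2.3 hold no other of the 6 motifs. Whether the form of the motif goes with the ratios was not tested. None of the 6 motifs was found in the windows of many members, among them ELIP2, PSAD-2, LHCB4.3, LHCB3, LHCB1.2, LHCB1.5, LHCB5 and PSBP-1. The share of all genes without any match was not computed.

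The LHCA genes encode the antenna of PSI. All 6 were below the control in all 4 columns, with median log2 ratios of −0.56, −0.80, −0.76 and −0.70. LHCA1 (AT3G54890) gave 3083 CPM without treatment, 1979 and 1482 with 1 h and 3 h of ABA, and 1824 and 1507 with 1 h and 3 h of dehydration. LHCA2 (AT3G61470) had 2009.8 CPM in untreated seedlings, 1540.4 and 1243 after 1 h and 3 h of ABA, and 1291 and 1194 after 1 h and 3 h of dehydration. LHCA1 was lowest after ABA 3 h, 2.08-fold below the control, and LHCA2 after dehydration 3 h, 1.68-fold below. LHCA3 (AT1G61520) stood at 2848 CPM in the control, at 1941 and 1509.8 after ABA 1 h and 3 h, and at 1639 and 1814 after dehydration 1 h and 3 h. LHCA4 (AT3G47470), the partner of LHCA1 in a dimer, gave 3724 CPM without treatment, 2521 and 2205 with 1 h and 3 h of ABA, and 2300.2 and 2504 with 1 h and 3 h of dehydration. Both LHCA3 and LHCA4 were lowest after ABA 3 h and stood higher after 3 h than after 1 h of dehydration. LHCA5 (AT1G45474) and LHCA6 (AT1G19150) are minor members that link PSI to the NADH dehydrogenase-like complex. LHCA5 had 111 CPM in untreated seedlings, 79.5 and 75.6 after 1 h and 3 h of ABA, and 65.5 and 71.8 after 1 h and 3 h of dehydration. LHCA6 stood at 54.6 CPM in the control, at 30.4 and 30.3 after ABA 1 h and 3 h, and at 26.5 and 28.1 after dehydration 1 h and 3 h. They were the 2 lowest LHCA genes by control FPKM, 157 and 60.3 against 1921 to 3440.2 for LHCA1 to LHCA4. LHCA6 had the lowest LHCA ratio after ABA 1 h, at log2 −0.85, and after dehydration 1 h, at −1.04.

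The LHCB1 to LHCB3 proteins form the trimers of the major antenna, LHCII. Among all 13 LHCB genes the medians were −0.54, −0.94, −0.90 and −0.91, with 1, 5, 3 and 6 genes at least 2-fold lower. Of all genes, 5.24%, 7.88%, 5.85% and 6.57% were at least 2-fold lower. LHCB1.2 (AT1G29910) gave 5081 CPM without treatment, 3522 and 2371 with 1 h and 3 h of ABA, and 2732 and 2924 with 1 h and 3 h of dehydration. LHCB1.5 (AT2G34420) had 5387 CPM in untreated seedlings, 3707 and 3704 after 1 h and 3 h of ABA, and 2759 and 2581 after 1 h and 3 h of dehydration. Both were the highest of the 68 genes in the control by FPKM, at 5454 and 5419. They differed in where they were lowest: LHCB1.2 was 2.14-fold below the control after ABA 3 h, and LHCB1.5 2.09-fold below after dehydration 3 h. LHCB1.4 (AT2G34430) stood at 827 CPM in the control, at 645 and 892 after ABA 1 h and 3 h, and at 588 and 535 after dehydration 1 h and 3 h. After ABA 3 h LHCB1.4 was the only antenna gene compared that was above the control, by log2 0.11 (interval 0.10 to 0.12), while its divergent neighbour LHCB1.5, 1038 bases away on chromosome 2, was at −0.54. The interval leaves out the choice of scaling. Upper-quartile scaling shifted the median of all genes in that comparison by −0.09, nearly the size of the LHCB1.4 ratio, without changing its sign. LHCB1.1, whose annotation is worded differently, was at −0.80, −1.11, −0.82 and −0.52. The LHCB1 copies are alike in sequence: 4.23% of the 100-base stretches of LHCB1.5 occur in LHCB1.4 and 1.51% of those of LHCB1.2 in LHCB1.1, so reads could have been divided between them, more so where mismatches were allowed.

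LHCB2 supplies the trimer subunit that is phosphorylated when the antenna moves between photosystems. LHCB2.1 (AT2G05100) gave 2163 CPM without treatment, 1449 and 1127 with 1 h and 3 h of ABA, and 1150.1 and 969 with 1 h and 3 h of dehydration. LHCB2.2 (AT2G05070) had 1804 CPM in untreated seedlings, 1143 and 991 after 1 h and 3 h of ABA, and 976 and 706 after 1 h and 3 h of dehydration. LHCB2.3 (AT3G27690) stood at 407 CPM in the control, at 165 and 138 after ABA 1 h and 3 h, and at 153 and 84.4 after dehydration 1 h and 3 h. LHCB2.1, LHCB2.2 and LHCB2.3 were each lowest after dehydration 3 h. LHCB2.3 had the lowest ratio of all 66 genes after ABA 1 h, ABA 3 h and dehydration 3 h, with log2 ratios of −1.31, −1.56, −1.42 and −2.27 over the 4 columns, the last with an interval of −2.30 to −2.25. Its share of LHCB2 FPKM was 11.1% in the control and 5.81% after dehydration 3 h. Of the 100-base stretches of LHCB2.2, 12.4% occur in LHCB2.1, so those 2 are less well separated than LHCB2.3, which shares none. LHCB3 (AT5G54270), the remaining trimer subunit, gave 3008 CPM without treatment, 1818 and 1206 with 1 h and 3 h of ABA, and 1570.2 and 1597 with 1 h and 3 h of dehydration. It was lowest after ABA 3 h, 2.50-fold below the control, and stood at about the same level after both times of dehydration.

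LHCB4 (CP29), LHCB5 (CP26) and LHCB6 (CP24) are the minor antenna proteins between LHCII and the PSII core. LHCB4.1 (AT5G01530) had 1805 CPM in untreated seedlings, 1408 and 1151 after 1 h and 3 h of ABA, and 1207 and 1297 after 1 h and 3 h of dehydration. LHCB4.2 (AT3G08940) stood at 1119 CPM in the control, at 577 and 516 after ABA 1 h and 3 h, and at 454 and 374 after dehydration 1 h and 3 h. LHCB4.3 (AT2G40100), the rare copy, gave 4.1 CPM without treatment, 3.43 and 3.54 with 1 h and 3 h of ABA, and 3.97 and 8.19 with 1 h and 3 h of dehydration. The 3 copies of LHCB4 went apart after dehydration 3 h, where LHCB4.1 was at log2 −0.48, LHCB4.2 at −1.58 (interval −1.59 to −1.57) and LHCB4.3 at 0.997 (interval 0.87 to 1.13). The share of LHCB4.2 in LHCB4 FPKM was 40.5% in the control and 23.7% after dehydration 3 h, and that of LHCB4.3 was 0.153% and 0.533%. LHCB5 (AT4G10340) had 2703 CPM in untreated seedlings, 1874 and 1375 after 1 h and 3 h of ABA, and 1604 and 1729.8 after 1 h and 3 h of dehydration. LHCB6 (AT1G15820) stood at 1717 CPM in the control, at 1116 and 829 after ABA 1 h and 3 h, and at 815 and 814 after dehydration 1 h and 3 h. LHCB5 was lowest after ABA 3 h, while LHCB6 gave nearly equal values after ABA 3 h and both times of dehydration. LHCB7 (AT1G76570), a rarely expressed member of the family, gave 8.13 CPM without treatment, 6.45 and 5.30 with 1 h and 3 h of ABA, and 8.63 and 13.3 with 1 h and 3 h of dehydration. It was lower than the control after both times of ABA, near it after dehydration 1 h and 1.64-fold higher after dehydration 3 h (log2 0.71, interval 0.62 to 0.81). LHCB7 and LHCB4.3 were thus the 2 antenna genes above the control after dehydration 3 h, and both had the lowest antenna FPKM in the control, 8.76 and 4.25.

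**Figure D3:**
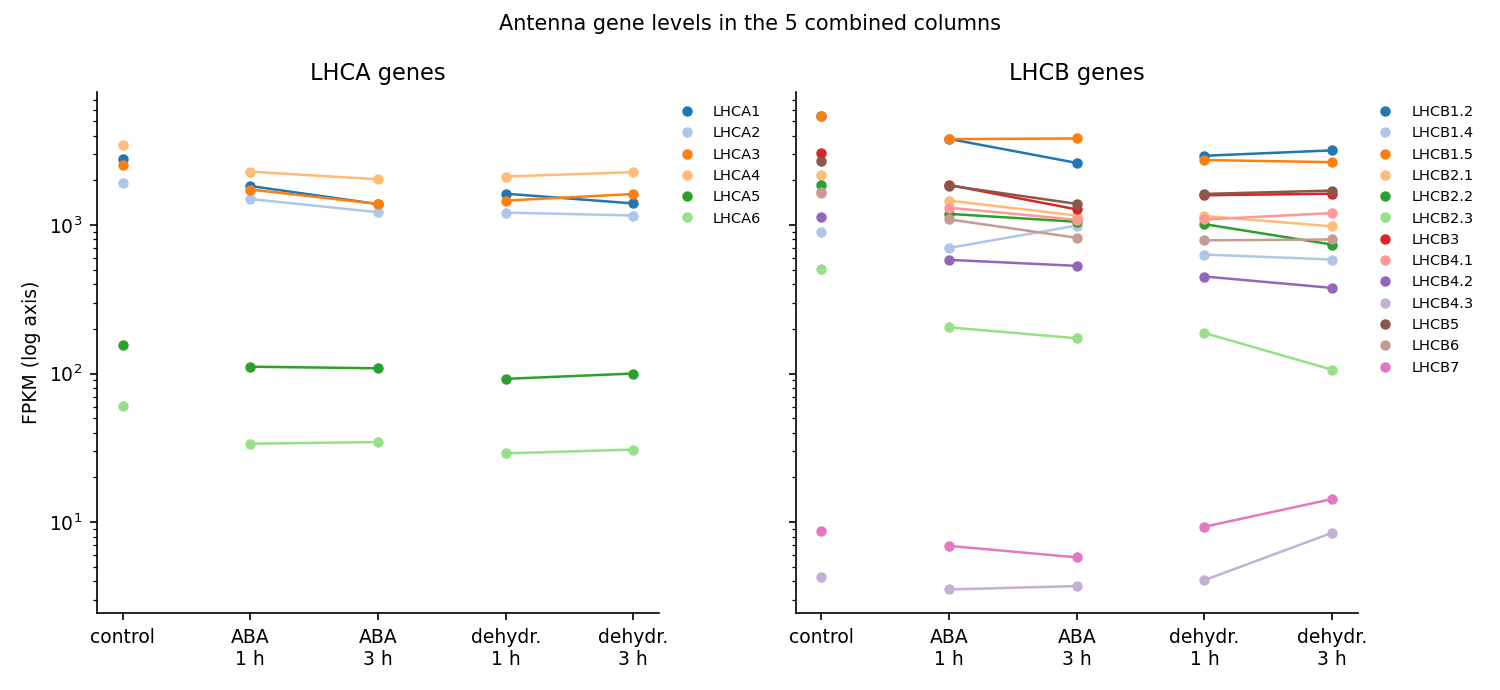
FPKM on a log axis for the 6 LHCA genes (left) and the 13 LHCB genes (right) in the 5 combined columns; lines join the 2 times of a treatment. LHCB2.3 lies further below the other LHCB2 genes in the treated columns than in the control, and LHCB4.3 and LHCB7, at the bottom, are highest after dehydration 3 h.

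The light-harvesting-like proteins are relatives of the antenna proteins but are not part of the main antenna. One of their genes, ELIP1, held the highest ratio among the members compared in each of the 4 comparisons with the control. The early light-induced proteins ELIP1 and ELIP2 are known to accumulate in thylakoids under light stress. ELIP1 (AT3G22840) had 2.0 CPM in untreated seedlings, 3.83 and 31.6 after 1 h and 3 h of ABA, and 11.7 and 48.8 after 1 h and 3 h of dehydration. Its control level rested on 352 reads. It was 15.8-fold above the control after ABA 3 h (log2 3.98, interval 3.83 to 4.14) and 24.4-fold above after dehydration 3 h (log2 4.61, interval 4.45 to 4.77). ELIP2 (AT4G14690) stood at 5.88 CPM in the control, at 3.90 and 2.91 after ABA 1 h and 3 h, and at 14.8 and 21.9 after dehydration 1 h and 3 h. ELIP2 was lower than the control after ABA, at log2 −0.59 and −1.02, and higher after dehydration, at 1.33 and 1.90 (interval of the last 1.80 to 1.996). The 2 copies therefore stood on opposite sides of the control after both times of ABA and on the same side after dehydration. ELIP1 made up 24.4% of ELIP FPKM in the control, 91.2% after ABA 3 h and 67.9% after dehydration 3 h. Between the 3 h columns ELIP2 was 7.52-fold higher after dehydration than after ABA, and ELIP1 1.54-fold higher.

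PSBS, which switches on the thermal quenching of excess light, and the LIL3 proteins, which hold enzymes of chlorophyll synthesis at the membrane, stood below the control with most other members. PSBS (AT1G44575) gave 1021 CPM without treatment, 761 and 553 with 1 h and 3 h of ABA, and 656 and 738 with 1 h and 3 h of dehydration. LIL3:1 (AT4G17600) had 214 CPM in untreated seedlings, 168 and 147 after 1 h and 3 h of ABA, and 157 and 165 after 1 h and 3 h of dehydration. LIL3:2 (AT5G47110) stood at 225 CPM in the control, at 186 and 176 after ABA 1 h and 3 h, and at 167 and 204 after dehydration 1 h and 3 h. PSBS and LIL3:1 were lowest after ABA 3 h and LIL3:2 after dehydration 1 h, and in each of the 3 every treated column was below the control. Of the 4 single-helix and SEP relatives outside the annotation's wording (OHP1, OHP2, SEP1 and SEP2), all were below the control in all 4 columns, none by 2-fold.

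**Figure D4:**
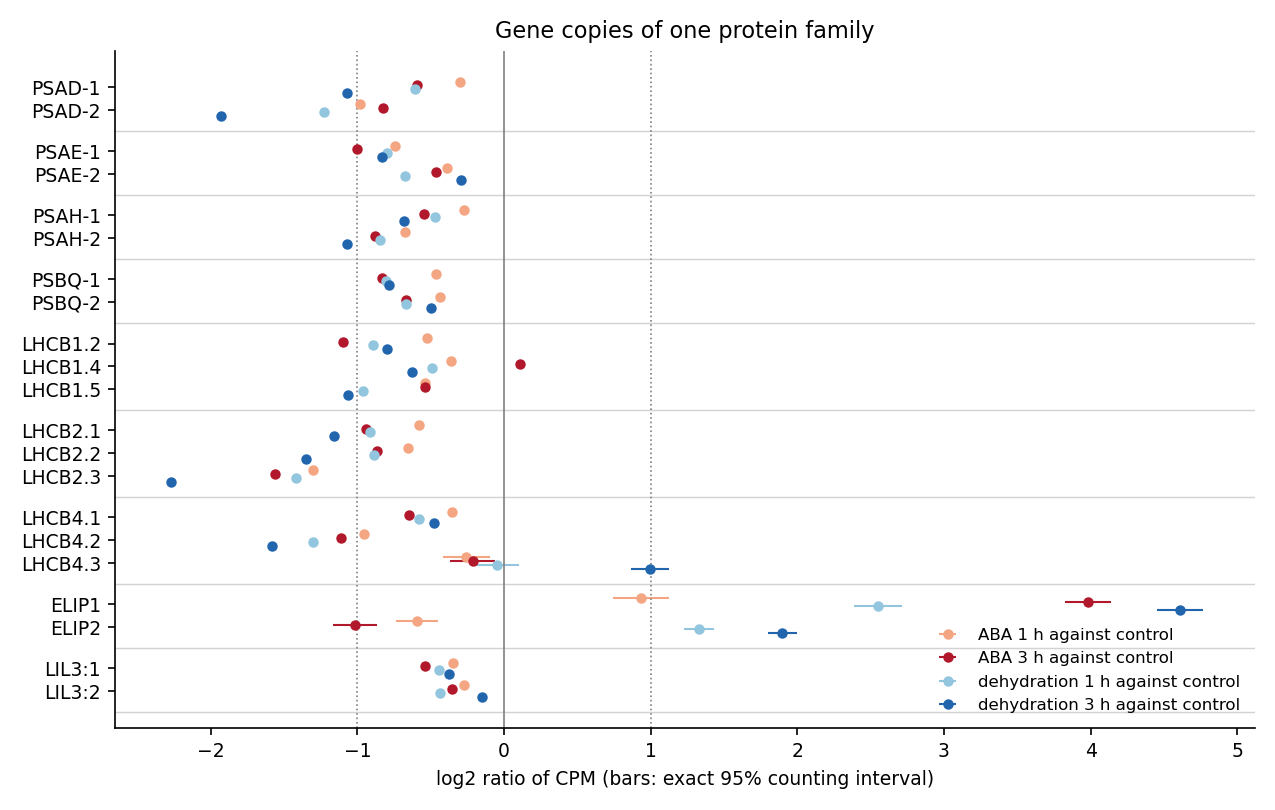
Log2 ratio of CPM against the control for gene copies of 9 protein families, with exact 95% counting intervals (hidden by the point where narrow); colours mark the 4 treated columns. ELIP1 and ELIP2 lie on opposite sides of 0 after ABA, and PSAD-2, LHCB2.3 and LHCB4.2 lie below their sister copies after dehydration 3 h.

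All 13 PSI subunit genes were below the control in all 4 columns, with medians of −0.49, −0.75, −0.69 and −0.72. At least 2-fold lower were 0, 2, 2 and 3 of the 13, beside 5.24%, 7.88%, 5.85% and 6.57% of all genes. PsaD and PsaE form the stromal docking side for ferredoxin, and each has 2 gene copies. PSAD-1 (AT4G02770) gave 908 CPM without treatment, 737 and 601 with 1 h and 3 h of ABA, and 596 and 433 with 1 h and 3 h of dehydration. PSAD-2 (AT1G03130) had 405 CPM in untreated seedlings, 205 and 228 after 1 h and 3 h of ABA, and 173 and 106 after 1 h and 3 h of dehydration. PSAD-2 was lower against its control than PSAD-1 in each treated column, and after dehydration 3 h it was at log2 −1.93 (interval −1.95 to −1.90) against −1.07. Its share of PSAD FPKM was 29.96% in the control and 18.9% after dehydration 3 h. PSAD-2 overlaps the gene AT1G03140 on the same strand, so some of its reads may be uncertain, and the same holds for PSBP-1 with AT1G06670 and for AT3G63540 with AT3G63530. For PsaE, PSAE-2 (AT2G20260) stood at 279 CPM in the control, at 213 and 202 after ABA 1 h and 3 h, and at 175 and 228 after dehydration 1 h and 3 h. PSAE-1 (AT4G28750) had the lower ratio of the 2, at −0.74, −1.001, −0.80 and −0.84, and PSAE-2 held 24.3% of PSAE FPKM in the control and 31.6% after dehydration 3 h.

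PsaF and PsaN help plastocyanin bind on the lumenal side. PSAF (AT1G31330) gave 1860.4 CPM without treatment, 1482 and 1108 with 1 h and 3 h of ABA, and 1386 and 1015 with 1 h and 3 h of dehydration. PSAN (AT5G64040) had 833 CPM in untreated seedlings, 504 and 336 after 1 h and 3 h of ABA, and 398 and 476 after 1 h and 3 h of dehydration. PSAN was the PSI gene with the lowest ratio after ABA 3 h, 2.48-fold below the control (log2 −1.31, interval −1.32 to −1.30), and stood 1.42-fold higher after dehydration 3 h than after ABA 3 h, while PSAF was lowest after dehydration 3 h. PsaH, PsaL and PsaO lie where LHCII docks on PSI, and PsaG and PsaK flank the LHCA belt. PSAH-1 (AT3G16140) stood at 502 CPM in the control, at 415 and 344 after ABA 1 h and 3 h, and at 362 and 312 after dehydration 1 h and 3 h. PSAO (AT1G08380) gave 1236 CPM without treatment, 979 and 888 with 1 h and 3 h of ABA, and 756 and 861 with 1 h and 3 h of dehydration. PSAK (AT1G30380) had 742 CPM in untreated seedlings, 526 and 381 after 1 h and 3 h of ABA, and 439 and 516 after 1 h and 3 h of dehydration. PSAH-1 was lowest after dehydration 3 h, PSAO after dehydration 1 h and PSAK after ABA 3 h, so genes of 1 complex did not share 1 lowest column. PSAH-2 (AT1G52230) had the lower ratio of the PSAH copies, at −0.68, −0.88, −0.85 and −1.07. PSAG, PSAL and PSAP, whose product is also known as the thylakoid curvature protein CURT1B, lay between −0.80 and −0.33 over the 4 columns.

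The PSII subunit genes in the tables encode the lumenal oxygen-evolving proteins and small membrane subunits. All 11 that were compared were below the control in all 4 columns, with medians of −0.54, −0.83, −0.80 and −0.78. AT1G51400, annotated as a PSII 5 kD protein, stood at 298 CPM in the control, at 143 and 148 after ABA 1 h and 3 h, and at 107 and 107 after dehydration 1 h and 3 h. It was the PSII gene furthest below the control among those with at least 10 CPM, at log2 −1.06, −1.01, −1.48 and −1.48, with an interval of −1.50 to −1.46 after dehydration 1 h. PSBX (AT2G06520), a small subunit, gave 794 CPM without treatment, 747 and 621 with 1 h and 3 h of ABA, and 535 and 479 with 1 h and 3 h of dehydration. PSBX was near the control after ABA 1 h, 1.06-fold lower, and lowest after dehydration 3 h. The oxygen-evolving proteins PsbO, PsbP and PsbQ shield the manganese cluster. PSBO2, PSBP-1, PSBQ-1 and PSBQ-2 ran from −0.43 for PSBQ-2 after ABA 1 h to −0.99 for PSBO2 after dehydration 3 h, and PSBO1, whose annotation is worded differently, was at −0.46, −0.71, −0.71 and −0.61. PSBP-2 (AT2G30790), a weakly expressed copy with 3.28 FPKM in the control against 2622 for PSBP-1, had log2 ratios of −0.91, −0.82, −1.55 and −0.37, with an interval of −1.81 to −1.29 after dehydration 1 h. PSBR (AT1G79040), which helps hold PsbP, had rank 3 of all 68 genes by control FPKM, at 4347, and stood at log2 −0.78, −0.91, −0.89 and −0.73. PSBW, PSBY and PSBTN lay between −1.02 and −0.46.

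The further PsbP-domain genes encode mostly lumenal relatives of PsbP, several of them known as assembly helpers. They were 0.880% of the members' reads in the control, and their medians were −0.41, −0.60, −0.59 and −0.51. In each column 0 of 10 were at least 2-fold lower, beside 5.24%, 7.88%, 5.85% and 6.57% of all genes. AT5G11450 had 128 CPM in untreated seedlings, 109 and 97.4 after 1 h and 3 h of ABA, and 99.3 and 116 after 1 h and 3 h of dehydration. AT1G76450 stood at 84.8 CPM in the control, at 63.7 and 60.4 after ABA 1 h and 3 h, and at 72.4 and 74.99 after dehydration 1 h and 3 h. AT1G77090 gave 37.0 CPM without treatment, 28.4 and 26.4 with 1 h and 3 h of ABA, and 27.5 and 36.6 with 1 h and 3 h of dehydration. In these 3 the dehydration 3 h column stood above the ABA 3 h column. AT3G56650 had 37.2 CPM in untreated seedlings, 21.9 and 22.5 after 1 h and 3 h of ABA, and 22.1 and 23.2 after 1 h and 3 h of dehydration. AT3G56650 was nearly level across the 4 treated columns, all of them below the control. AT1G69680 was the 1 member that stayed within 0.25 log2 of the control in all 4 columns (10.7% of all genes did), at 0.09, −0.16, −0.13 and −0.06, and with upper-quartile scaling no member did. The ratios of dehydration 3 h to 1 h, log2 0.02 to 0.41, were close to 0 for several of the 10: the intervals of AT2G28605, AT4G15510 and AT1G69680 include 0, and with total-count scaling 4 of the 10 stayed above 0.

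The 6 assembly and repair genes had medians of −0.44, −0.76, −0.53 and −0.44. PSB28 (AT4G28660), a PSII assembly factor, stood at 170.3 CPM in the control, at 133 and 93.7 after ABA 1 h and 3 h, and at 115 and 118 after dehydration 1 h and 3 h. HCF136 (AT5G23120), which is needed to build the PSII reaction centre, gave 253 CPM without treatment, 173 and 150.2 with 1 h and 3 h of ABA, and 179.9 and 197 with 1 h and 3 h of dehydration. PSB29 (AT2G20890, THF1), known for chloroplast development and PSII turnover, had 435 CPM in untreated seedlings, 355 and 391 after 1 h and 3 h of ABA, and 315 and 370.4 after 1 h and 3 h of dehydration. PSB28 and HCF136 were lowest after ABA 3 h, while PSB29 was closer to the control after ABA 3 h, at log2 −0.15, than after ABA 1 h, at −0.29. PSB27, for PSII repair, and its relative LPA19 were at −0.84 and −1.01 after dehydration 3 h. AT3G22690, annotated for photosystem assembly and RNA modification, was weakly expressed, with 1.31 FPKM in the control. It was above the control in 3 columns, at log2 0.61, 0.68 and 0.69, and below it after dehydration 3 h, at −0.22 (interval −0.38 to −0.05). AT1G49975, annotated by its likeness to PSAN, stood at 31.4 CPM in the control, at 24.7 and 24.7 after ABA 1 h and 3 h, and at 20.4 and 18.7 after dehydration 1 h and 3 h. AT1G52220, annotated by its likeness to PSAP, stood at log2 −0.33, −0.41, −0.66 and −0.55, so both were below the control throughout.

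The 2 treatments were next compared over time. After ABA, 56 of the 66 genes were lower at 3 h than at 1 h (49.1% of all genes were), with a median log2 ratio of −0.23. ELIP1 was the 1 member at least 2-fold apart between those columns, 8.27-fold higher at 3 h (7.31% of all genes were at least 2-fold apart). LHCB3, PSAN and LHCB1.2 had the lowest ratios of 3 h to 1 h, at −0.59, −0.58 and −0.57, and LHCB1.4 stood at 0.47. After dehydration, 25 of the 66 were lower at 3 h than at 1 h (50.2% of all genes) and 41 higher, or 23 higher with total-count scaling, with a median of 0.05 that turned to −0.0661 with total-count scaling. Members at least 2-fold apart were ELIP1, LHCB4.3 and PSBP-2, all higher at 3 h (6.79% of all genes were that far apart). LHCB2.3 and PSAD-2 had the lowest ratios of 3 h to 1 h among members with at least 10 CPM, at −0.85 and −0.70. Most members thus stood lower at the later time after ABA, and at about the same level at both times after dehydration.

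At 1 h, 58 of the 66 genes were lower after dehydration than after ABA (52.1% of all genes), with a median of −0.22. Other genes above 100 CPM also lay lower in that comparison, with a median of −0.17. ELIP1 and ELIP2 were the 2 members at least 2-fold apart, 3.06-fold and 3.79-fold higher after dehydration (8.89% of all genes were that far apart). PSBX and LHCB6 had the lowest ratios among members with at least 10 CPM, −0.48 and −0.45. At 3 h, 29 of the 66 were lower after dehydration than after ABA (52% of all genes), and the median was 0.05. At least 2-fold apart were 4 members (16% of all genes): ELIP2, LHCB7 and LHCB4.3 were higher after dehydration, by 7.52-fold, 2.51-fold and 2.31-fold, and PSAD-2 was 2.15-fold lower. The members' median was thus nearly the same in both 3 h columns, while these 4 genes stood apart.

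Genes of the steps around the photosystems were described in the same columns, from lists of known genes. RD29A, a standard ABA and drought gene, was at log2 6.48 after ABA 1 h and at 6.07 and 8.14 for the times of dehydration, and its count after ABA 3 h is missing. All 11 genes for electron carriers and cyclic flow were compared. Of these, 11, 10, 10 and 10 were below the control, with medians of −0.50, −0.81, −0.67 and −0.61, beside −0.49, −0.75, −0.69 and −0.67 for the members. The plastocyanin gene PETE1 was at −1.71 and the ferredoxin gene FD1 at −1.31 after dehydration 3 h, and LFNR2, a ferredoxin-NADP reductase, stood above the control at 0.36. The 3 nuclear genes of the chloroplast ATP synthase were below the control in every column, none by 2-fold. All 11 Calvin cycle genes compared were below the control in every column, with medians of −0.42, −0.91, −0.59 and −0.79. At least 2-fold lower were 4 after ABA 3 h (7.88% of all genes) and 4 after dehydration 3 h (6.57%). After ABA 3 h the Rubisco small subunit genes RBCS1B and RBCS3B were at −2.16 and −1.46, and RBCS1A was not analysed here.

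Genes of pigment turnover stood on both sides of the control. Among 9 genes of chlorophyll synthesis the medians were −0.16, −0.35, −0.27 and −0.40. After ABA 3 h, 2 of the 9 were at least 2-fold higher (9.02% of all genes) and 1 at least 2-fold lower (7.88%). GUN4, which aids magnesium chelatase, was then at −1.09, CAO, which makes chlorophyll b, at −0.82, and the protochlorophyllide reductase gene PORB at 1.59. Of 6 chlorophyll breakdown genes, 4 stood at least 2-fold above the control with 3 h of ABA (9.02% of all genes), with a median of 1.66. With 3 h of dehydration 2 did (10.4% of all genes), with a median of 0.57. NYE2 and NYE1, which start the removal of magnesium from chlorophyll, were at 3.12 and 1.98 after ABA 3 h, and NOL was at −0.14 after dehydration 3 h. Among 9 genes for antenna import, phosphorylation and the xanthophyll cycle, the import factor gene CPSRP43 was lowest after dehydration 3 h, at −1.43, and the list's medians were −0.33, −0.17, −0.22 and −0.20.

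The 10 listed regulators of photosynthesis genes had medians of −0.13, −0.45, 0.09 and −0.10. GLK1 and GLK2 encode factors that activate LHC and chlorophyll genes: GLK1 stood at 0.24, −0.35, 0.18 and 0.61, and GLK2 at −0.18, −0.91, −0.27 and −0.73. SIG5, a plastid sigma factor known for stress and light responses, was at 2.08 and 2.32 with 1 h and 3 h of dehydration. The GATA factor gene CGA1 was at −1.98 after ABA 3 h and 1.80 after dehydration 1 h. Clock genes differed between columns as well: CCA1 was at 0.73, −1.60, 0.49 and −0.15, LHY at −0.59, −2.36, −0.73 and −1.73, and TOC1 at 0.65, 1.41, 1.57 and 1.71. CCA1 and LHY peak around dawn and TOC1 in the evening. The clock genes' part in the members' values was not tested.

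**Figure D5:**
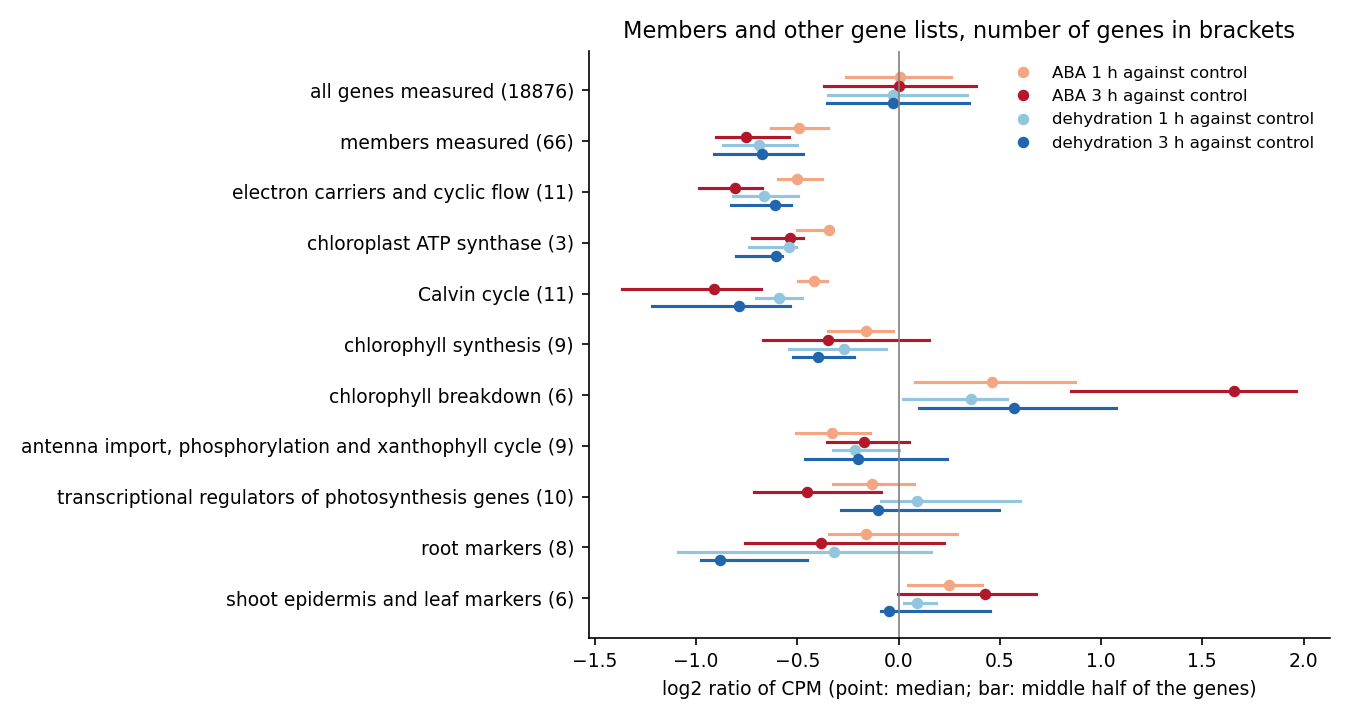
Median log2 ratio of CPM against the control (points) and the range from the 25th to the 75th percentile of the genes (bars) for all genes compared, the 66 photosystem and light-harvesting genes and 9 other lists, in the 4 treated columns. The members, the electron carriers and the Calvin cycle genes lie left of 0, and chlorophyll breakdown genes lie right of it, furthest after ABA 3 h at 1.66.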

How the data were processed

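Polyadenylated RNA was sequenced with a stranded kit as single reads, per the labels' protocols. The submitters' processing notes name TopHat2 2.0.8, Cufflinks 2.1.1, Cuffdiff, DESeq2 and the TAIR10 build. Which of them made which table, how the 3 replicates of a condition were combined, the counter and its strand setting: not one of these is given in the sources used here. The deposited count table holds read counts per gene and 1 column per condition, and the authors' FPKM table holds values per length and depth for the same columns. The count of RD29A after ABA 3 h was 0 beside a high FPKM and was treated as missing.

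Counts were scaled by TMM (edgeR 4.0.16, R 4.3.3) and given as CPM. Ratios used a floor of 3 reads, exact (Clopper-Pearson) 95% intervals (SciPy 1.17.1, pandas 2.3.3, Python 3.11.15), a minimum mean of 1 CPM and a limit of 2-fold, in 8 comparisons. With 1 column per condition no test across replicates was made. The ratio step was tested on simulated counts, drawn from the control column with known folds. Both simulated columns were given the same total and held counting error only. Scaling between columns and spread between replicates were therefore not tested. Levels between genes were compared on FPKM. Alternatives were other scalings, other filters, log2(FPKM + 1) and log2(FPKM + 0.1), and leaving out LHCB1 and LHCB2.

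Full values are printed for all LHCA, LHCB and light-harvesting-like genes compared and, per comparison, for the 5 highest and 5 lowest ratios among members reaching 10 CPM in 1 of the compared columns. Of other lists, at most 3 genes each are named, 2 on the commoner side of the control and 1 on the other, plus GLK1, GLK2, CCA1, LHY, TOC1 and RD29A. The members and lists were chosen with earlier results of these data known. Promoter windows and positions came from RefSeq TAIR10.1, not from the deposited tables.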

Additional observations from a re-analysis of the deposited data

How the results depend on the processing

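Between scalings, filters and units, most medians and 2-fold counts per comparison stayed close to the values in the report. The exceptions for the photosystem and light-harvesting genes follow. With upper-quartile scaling, 17 genes were at least 2-fold lower after ABA 3 h in place of 10, and the median of ABA 3 h against ABA 1 h was −0.33 in place of −0.23. With total-count scaling that median was also −0.33, the median of dehydration 1 h against the control was −0.55 in place of −0.69, 5 genes in place of 8 were at least 2-fold lower there, and the median of dehydration 3 h against 1 h reversed, to −0.0661 from 0.05. Total-count scaling moved the median of all genes by 0.14 (log2) after dehydration 1 h, and 40.3% of all genes then lay below the control in place of 52.3% (42.5% in place of 49.1% after ABA 1 h). Against the control, it changed the sign of 3 of the members' ratios: LHCB4.3 (from −0.05 to 0.09) and AT1G69680 (from −0.13 to 0.0039) after dehydration 1 h, and AT1G77090 after dehydration 3 h, from −0.02 to 0.01. RLE and upper-quartile scaling changed no sign against the control. Over all 8 comparisons, 2 of 528 ratios changed sign under RLE, 17 under the upper quartile and 34 under total counts. Without a filter, the count of genes at least 2-fold above the control with 3 h of ABA was 2 in place of 1. Without LHCB1 and LHCB2, 1 gene in place of 2 was at least 2-fold lower after ABA 1 h. The cause was not tested for the other scalings. Adding the 6 related genes worded outside the annotation rule, an alternative chosen after seeing the data, moved no median or count beyond these limits. No paired analysis was possible because the tables hold 1 combined column per condition, so the replicate block, DESeq2 and leaving out a replicate were not run. Depth limited the weakly expressed genes most, as the wide intervals of PSBP-2, LHCB4.3 and ELIP1, among others, show.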
